A study of Homo sapiens with 8 samples.

Results

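Heme oxygenase 1 (HMOX1) and 9 further genes of heme breakdown and iron handling were followed in PC3 cells given an siRNA against TRPM2-AS: HMOX2, BLVRA, BLVRB, FTH1, FTL, TFRC, SLC40A1, SLC11A2 and IREB2. The 10 genes were chosen by name, with earlier results of these data known, and their probes were taken from the platform's gene annotation. Of the 10, 8 had a named probe, with 10 probes in all, out of 18850 genes with a named probe on the array. FTH1, the ferritin heavy chain, and IREB2, iron regulatory protein 2, had no named probe and were not analysed here. HMOX2 and SLC40A1 were above background on 0 arrays, which left 6 genes for the test.

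PC3 is an established line derived from a metastasis of human prostate carcinoma. Cells were transfected with a non-specific control siRNA (4 samples) or with TRPM2-AS siRNA (4 samples), directed at the RNA read from the strand opposite TRPM2, a calcium channel gene, and total RNA was taken after 48 hours and hybridised to 1-colour Illumina bead arrays. Both groups were the same line in the same serum-containing medium, and the labels name 1 siRNA per group. Whether replicates came from separate cultures is not said in the labels; p-values therefore cover the spread among these samples alone, and that spread could be technical.

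The table of raw signals has 8 columns, of which 7 rank the probes exactly as 1 processed sample of their own group does (Spearman rho of 1). The column named as the TRPM2-AS siRNA array 2 follows no sample (highest rho 0.832), so 4 control and 3 TRPM2-AS siRNA arrays (1, 3 and 4) were compared, and this untraced column is shown separately. Arrays detected 13163 to 14318 probes, and 0 probes were named for TRPM2 or TRPM2-AS, so the depletion itself could not be checked. The epithelial genes KRT8, KRT18, KRT19 and EPCAM and the mesenchymal gene VIM were above background on all 7 arrays, and the epithelial cadherin CDH1 on 0 of 4 control and 3 of 3 TRPM2-AS siRNA arrays. The prostate secretory genes KLK2, KLK3, KLK4, ACP3 and FOLH1, the leukocyte genes PTPRC, CSF1R, LYZ and CD3E, the fibroblast genes COL1A2, COL3A1, DCN, LUM and PDGFRB and the globin genes HBA2, HBB, HBG1 and HBG2 were above background on 0 arrays, while the markers COL1A1, CD68 and EPOR were detected on all 7 and CD14 on 5. The luminal prostate gene TMPRSS2 was above background on 1 control and 2 TRPM2-AS siRNA arrays. Over all 9629 genes tested, 57.3% changed (limma, Benjamini-Hochberg adjusted p under 0.05), 28.5% higher and 28.8% lower with TRPM2-AS siRNA, and the groups did not overlap in 57.8%.

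Heme oxygenases open the heme ring and release iron, carbon monoxide and biliverdin; HMOX1 is the stress-inducible enzyme and HMOX2 the constitutive one. Biliverdin is reduced to bilirubin by the reductases BLVRA and BLVRB, and iron is stored in ferritin shells built of the heavy chain FTH1 and the light chain FTL. Iron enters cells through the transferrin receptor TFRC and the divalent metal transporter SLC11A2 (DMT1), and leaves through ferroportin, SLC40A1. Iron regulatory proteins (ACO1 and IREB2) bind stem-loops called iron-responsive elements in the mRNAs of ferritin, TFRC, ferroportin and some forms of SLC11A2. HMOX1 transcription is held down by BACH1 and raised by NRF2 (NFE2L2) with small MAF partners.

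With TRPM2-AS siRNA, SLC11A2 and HMOX1 rose about as much as each other, FTL rose slightly, BLVRA fell, and BLVRB and TFRC did not pass the test. Thus 3 of the 6 tested genes were higher, against 28.5% of all genes tested, and 1 was lower, against 28.8%. Together this was 66.7% against 57.3%, a share near the background. The groups did not overlap in HMOX1, SLC11A2, FTL and TFRC, all higher (28.9% of all genes tested), and in BLVRA, lower (28.8%). The size of the 2 large changes was less common: 0.540% of genes tested changed at least as much as HMOX1 in either direction, and 0.498% at least as much as SLC11A2. The median log2 fold change of the 6 genes was 0.37, against 0.00 over all genes tested. Since the genes were chosen with earlier results of these data known, these shares and sizes describe them and test nothing.

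**Figure D1:**
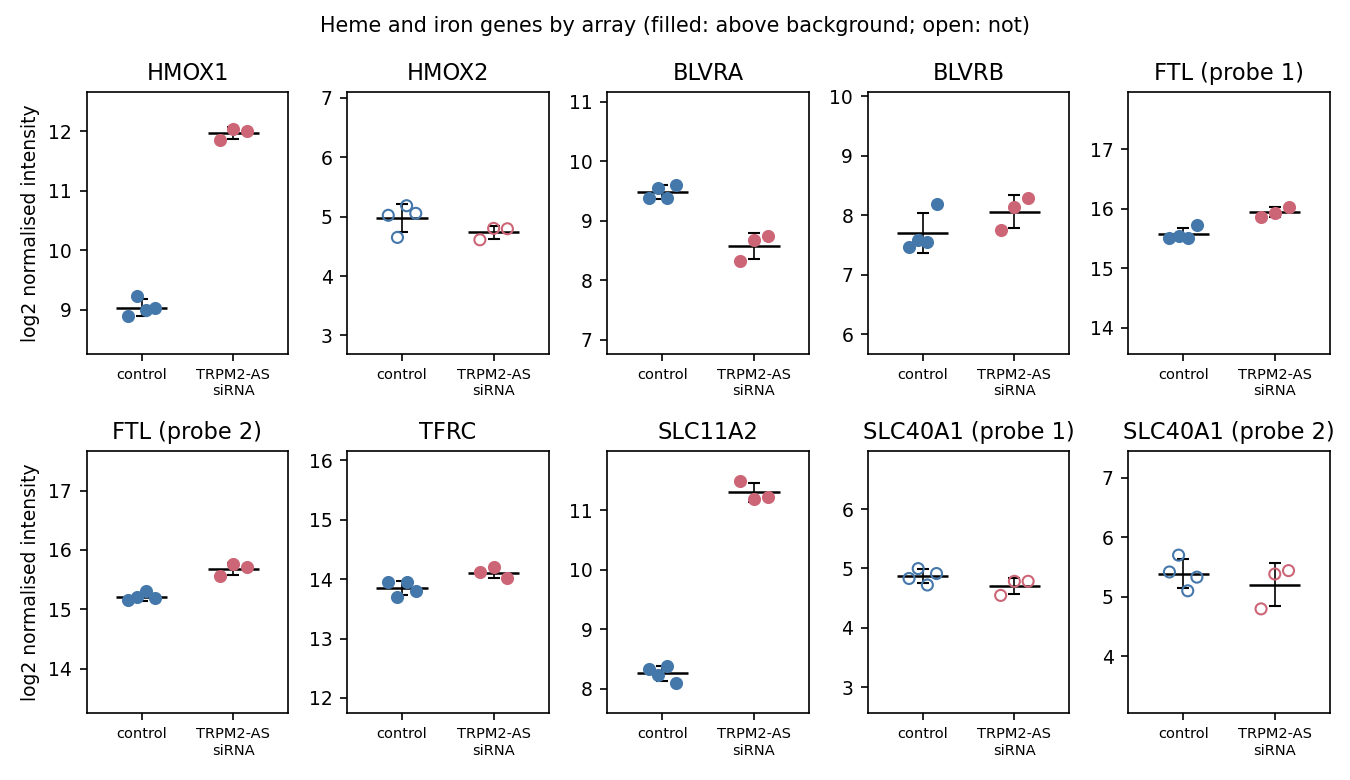
Normalised log2 intensity (y axis, each panel spanning the same number of log2 units) of every probe of the heme and iron genes in 4 control and 3 TRPM2-AS siRNA arrays. Points are arrays, lines and bars are means with SD, and filled points are above background; HMOX1 rises from 9.03 to 11.96 and SLC11A2 from 8.26 to 11.31 with no overlap, whereas HMOX2 and both SLC40A1 probes have open points only.

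HMOX1, on chromosome 22 (GRCh38.p14, 35381096 to 35394207), had raw signals of 613, 637, 648 and 643 in the control arrays and of 3814, 3966 and 4256 in the TRPM2-AS siRNA arrays. All 3 TRPM2-AS siRNA arrays lay far above all 4 control arrays, and the spread within each group was small. After background correction and quantile normalization the mean log2 intensity was 9.03 ± 0.14 (SD, n = 4) in control and 11.96 ± 0.10 (SD, n = 3) in TRPM2-AS siRNA arrays. The difference was 2.93 ± 0.12 (SE) on the log2 scale, with a 95% interval of 2.67 to 3.19, or 7.62-fold (limma adjusted p = 2.26e-08). Of all genes tested, 0.467% rose at least as much. In the authors' processed values, which cover 4 samples of each group, HMOX1 intensities ran from 591 to 718 in control and from 3864 to 4423 in TRPM2-AS siRNA samples, again with no overlap (6.62-fold, limma adjusted p = 1.65e-13).

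HMOX2 stayed at background. Its raw signals were 126, 108, 137 and 127 in control arrays and 108, 119 and 113 in TRPM2-AS siRNA arrays, with detection p-values from 0.0725 to 0.792. The single HMOX2 probe therefore gave no measure of the constitutive enzyme in either group, and no fold is given.

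The 2 biliverdin reductases differed in outcome. BLVRA, the main adult form (chromosome 7, GRCh38.p14, 43758122 to 43807342), had raw signals of 823, 775, 812 and 917 in control and of 428, 467 and 524 in TRPM2-AS siRNA arrays, so that every TRPM2-AS siRNA array was below every control array. It fell 1.87-fold, from 9.48 ± 0.12 (SD, n = 4) to 8.58 ± 0.22 (SD, n = 3), a log2 fold change of -0.90 ± 0.13 SE (95% interval -1.20 to -0.61, limma adjusted p = 0.000152). A fall of any size past the test was seen in 28.8% of all genes tested, and 21.9% changed at least as much as BLVRA in either direction.

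BLVRB, which reduces biliverdin and flavins, had raw signals of 290, 275, 302 and 407 in control and of 324, 356 and 409 in TRPM2-AS siRNA arrays. Control array 4 lay within the TRPM2-AS siRNA range and the groups overlapped. The log2 fold change was 0.36 ± 0.19 SE (95% interval -0.06 to 0.78, limma adjusted p = 0.127), so the direction was not resolved. In the authors' processed values of 8 samples BLVRB passed as higher (log2 fold change 0.28, limma adjusted p = 0.0446), as it did without control array 4 (0.53, adjusted p = 0.0146) or without TRPM2-AS siRNA array 1 (0.52, adjusted p = 0.0429).

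SLC11A2, the importer that carries iron out of the gut lumen and out of endosomes, changed by as much as HMOX1. Its raw signals were 452, 373, 459 and 385 in the control arrays and 2995, 2282 and 2545 in the TRPM2-AS siRNA arrays. The lowest TRPM2-AS siRNA array was well above the highest control array. Mean log2 intensity went from 8.26 ± 0.12 (SD, n = 4) to 11.31 ± 0.16 (SD, n = 3), a difference of 3.05 ± 0.12 (SE; 95% interval 2.77 to 3.32), or 8.26-fold (limma adjusted p = 2.22e-08). In the authors' processed values the intensities were 386 to 445 in control and 2499 to 3033 in TRPM2-AS siRNA samples (6.38-fold, limma adjusted p = 2.11e-13). SLC11A2 transcripts start at several sites and end with or without an iron-responsive element, and the position of its 1 probe is not given in the sources used here, so these forms were not told apart.

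The RefSeq promoter table lists 4 start sites for SLC11A2 on the minus strand of chromosome 12 (GRCh38.p14). The 250 bases before 2 of them are shown because SLC11A2 had the largest change and the starts differ in base composition; they were chosen after its values were seen. They hold 72.0% and 40.0% of G and C. A search on both strands for TGACNNNGC (the core bound by NRF2 and BACH1 with small MAF proteins), TGACTCA (AP-1) and ACGTG (the hypoxia core) found 0 matches in the 4 SLC11A2 stretches. Of 35116 stretches of this length in the table, 10.9% hold the first, 4.20% the second and 18.5% the third. In the windows of the other genes the first and the second were also absent; ACGTG began at base -88 from the TFRC start and, on the opposite strand, at -11 from the FTL start, and it also occurred before HMOX2. Of the 10 genes, 8 had a window in the table. HMOX1 and FTH1 had none, so the bases before their starts were not searched for any of these letters. The GC-rich stretch is chr12:51026385-51026634 and the AT-rich one is chr12:51028243-51028492, both 5′ to 3′.
SLC11A2 GC-rich start: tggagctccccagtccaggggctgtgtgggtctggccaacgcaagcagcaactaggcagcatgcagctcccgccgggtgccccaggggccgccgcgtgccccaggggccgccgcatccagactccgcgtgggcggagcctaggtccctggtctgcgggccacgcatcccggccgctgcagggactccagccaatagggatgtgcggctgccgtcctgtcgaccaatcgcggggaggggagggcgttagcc
SLC11A2 AT-rich start: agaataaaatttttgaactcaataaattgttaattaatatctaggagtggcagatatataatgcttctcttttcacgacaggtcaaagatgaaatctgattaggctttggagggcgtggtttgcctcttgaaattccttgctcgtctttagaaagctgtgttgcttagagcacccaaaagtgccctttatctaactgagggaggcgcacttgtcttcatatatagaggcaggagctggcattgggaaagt
A window without a match says only that these letters are not in these bases.

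TFRC, which takes up iron bound to transferrin, had raw signals of 16638, 12238, 17119 and 15176 in control and of 18365, 17097 and 16712 in TRPM2-AS siRNA arrays. Raw signals overlapped, whereas after normalization the TRPM2-AS siRNA arrays (14.01 to 14.20) lay just above the control arrays (13.71 to 13.96). The log2 fold change was 0.26 ± 0.12 SE, or 1.19-fold, and did not pass (limma adjusted p = 0.0804). It passed with no background correction (0.25, adjusted p = 0.0381), with a variance trend and robust fit (0.26, adjusted p = 0.0257) and in the authors' processed values (0.22, adjusted p = 0.0456).

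Ferroportin, SLC40A1, is the known exporter of free iron and had 2 probes, neither above background on any array. Raw signals of the brighter one were 142, 150, 134 and 137 in control and 119, 142 and 139 in TRPM2-AS siRNA arrays; those of the other ran from 102 to 126 over the 7 arrays. Neither probe gave a level of the exporter, and the import gene SLC11A2 thus had a measured rise while the export gene had no measurement.

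FTL, the ferritin light chain, had 2 probes, both bright. The first read 50321, 45237, 52378 and 56795 in control and 58948, 58270 and 63118 in TRPM2-AS siRNA arrays, and the second 38825, 36027, 45283 and 40646 against 49420, 49994 and 50182. With both probes every TRPM2-AS siRNA array was above every control array. The first probe, used for the gene, gave 15.57 ± 0.10 (SD, n = 4) and 15.94 ± 0.09 (SD, n = 3), a log2 fold change of 0.37 ± 0.11 SE or 1.29-fold (95% interval 0.12 to 0.62, limma adjusted p = 0.0154), and the second 0.47. Of all genes tested, 57.0% changed by at least this size. The brightest signals of the arrays were 71412 to 73396, and whether the scanner's ceiling compressed the FTL rise was not tested. The FTL call was lost when arrays were scaled to a common median only (0.27, adjusted p = 0.114) and without TRPM2-AS siRNA array 4 (0.32, adjusted p = 0.0679). FTL also has processed pseudogenes, whose transcripts the probes could bind.

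The FTL transcript carries its iron-responsive element close to the cap, and the loop is shown because iron sets ferritin output mainly at this element, after transcription, so that the array reads mRNA level and not ferritin. The 30 bases are chr19:48965329-48965358 (GRCh38.p14, plus strand), 5′ to 3′, with the conserved loop CAGTGT in capitals, beginning at base 39 of the transcript.
FTL iron-responsive element loop: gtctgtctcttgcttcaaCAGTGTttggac
The letters CAGTGT occur on the transcribed strand in the first 50 bases of 1.24% of 35116 RefSeq starts.

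**Figure D2:**
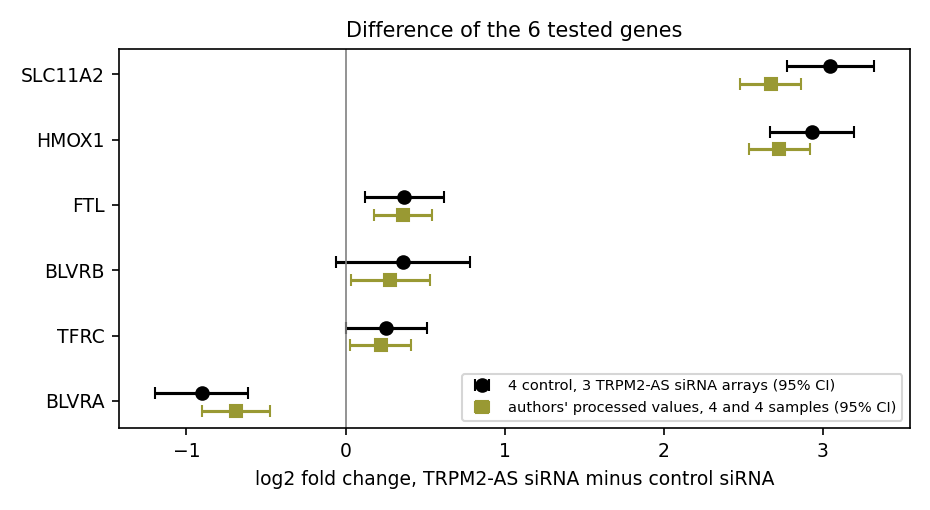
Log2 fold change (TRPM2-AS siRNA minus control siRNA, x axis) of the 6 tested genes (y axis) with 95% intervals, from 4 control and 3 TRPM2-AS siRNA arrays (circles) and from the authors' processed values of 4 and 4 samples (squares). SLC11A2 and HMOX1 stand near 3, BLVRA is below 0 and the BLVRB interval of the circles spans 0.

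The untraced column did not treat these genes alike. It correlated across genes with control arrays at 0.969 to 0.974 and with the traced TRPM2-AS siRNA arrays at 0.910 to 0.921, genes not being independent replicates. With all 8 columns normalised together, HMOX1 read 8.43 in the untraced column, below the lowest control array (8.94), and BLVRA read 9.42, just under the lowest control array (9.43). SLC11A2 read 11.54, level with the highest traced TRPM2-AS siRNA array and far above the highest control array (8.43); its raw signal there was 3825, against 2995 in the highest traced array. Of the 166 genes that rose at least 4-fold in the traced arrays, 54.2% were above every control array in the untraced column. At least 2-fold above the highest control array were 28 of the 166. The same shares were not counted over all genes tested, so these have no background to be read against. Of the 166, 4 were at or above the lowest traced TRPM2-AS siRNA array: SLC11A2, CLDN11, CYCS and HDGFL3. These 4 were named after their values were seen. Counted with the TRPM2-AS siRNA arrays, as it is named, the column left SLC11A2 (log2 fold change 3.09, limma adjusted p = 1.24e-05) and BLVRA (-0.71, adjusted p = 0.0371) past the threshold, and HMOX1 (2.03, adjusted p = 0.0638) and FTL (0.27, adjusted p = 0.151) no longer passed.

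**Figure D3:**
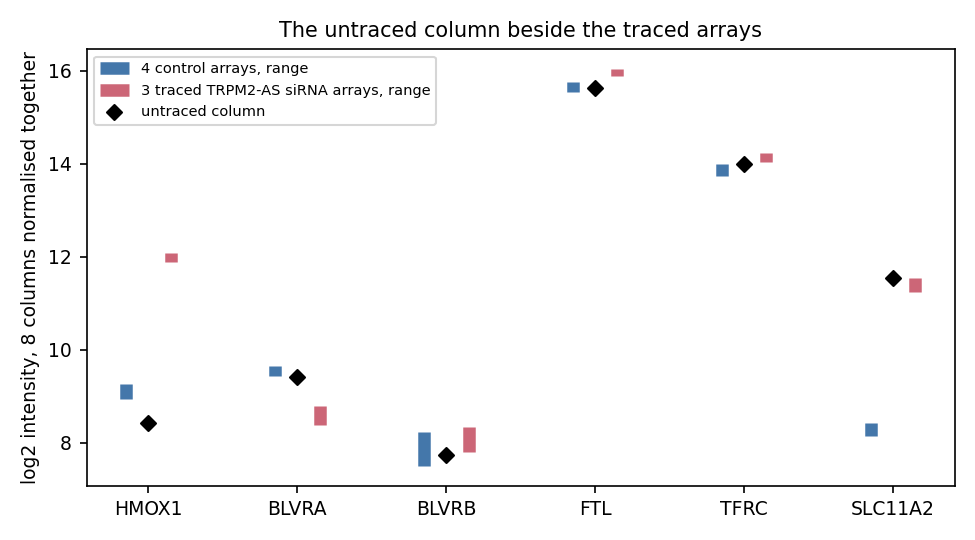
Log2 intensity (y axis) of the 6 tested genes with all 8 columns normalised together: bars span the 4 control and the 3 traced TRPM2-AS siRNA arrays, and diamonds are the untraced column. The diamond lies near the control bars for HMOX1 (8.43) and at the top of the TRPM2-AS siRNA bar for SLC11A2 (11.54).

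Among listed genes that act on HMOX1 transcription, for or against it, those past the threshold were higher. Of 16 listed, 10 were tested, 7 rose and 0 fell (median log2 fold change 0.50), or 70% called against 57.3% of all genes tested, of which 28.5% were higher. NFE2L2, which encodes NRF2, rose 1.31-fold, from 10.48 ± 0.11 (SD, n = 4) to 10.87 ± 0.15 (SD, n = 3; limma adjusted p = 0.0156). The small MAF genes MAFF (3.02-fold) and MAFG (1.74-fold) rose, as did SQSTM1, encoding the KEAP1-binding autophagy receptor p62 (2.04-fold), NFE2L1, a relative of NRF2 (1.76-fold), and the heat shock factor HSF1 (1.52-fold), with adjusted p-values from 6.35e-07 to 0.0156. RBX1 rose 1.31-fold (limma adjusted p = 0.0215). The list mixes genes that raise HMOX1 with genes that act against it, so its counts have no single meaning for HMOX1. A second MAFF probe had a log2 fold change of -0.17 against 1.59 for the probe used. KEAP1, which marks NRF2 for degradation, had a log2 fold change of -0.09 (adjusted p = 0.556), and the repressor BACH1 was above background on 0 arrays. With the untraced column included, the calls of NFE2L2, MAFF, MAFG, HSF1 and RBX1 were lost.

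Of 26 other genes known to respond to NRF2, 20 were tested, 5 passed as higher and 6 as lower (median log2 fold change -0.13). This was 55.0% called, against 57.3% of all genes tested. The lipogenic NADPH source ME1 fell 3.83-fold, PIR 3.38-fold and the quinone reductase NQO1 2.23-fold. The aldo-keto reductase AKR1C3 rose 2.99-fold, and AKR1C2, not above background on any control array, was at least 1.90-fold higher. AKR1C2 was admitted to the fit through the TRPM2-AS siRNA arrays alone and so had to differ, which makes its place among the 5 no test. These reductases are close relatives whose probes may bind each other's transcripts. HMOX1 thus rose in arrays in which NQO1 fell, each with no overlap between groups. ME1, PIR, NQO1 and AKR1C3 had limma adjusted p-values of at most 9.16e-06. The NQO1 call was lost with the untraced column included, when 3 of the list passed as higher and 4 as lower.

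Of 14 heme synthesis genes, 11 were tested, 5 rose and 2 fell (median log2 fold change 0.33). This was 63.6% called, near the 57.3% of all genes tested. ALAS1, the rate-limiting first enzyme outside red cells, rose 1.73-fold, from 6.76 ± 0.25 (SD, n = 4) to 7.55 ± 0.46 (SD, n = 3; limma adjusted p = 0.00700); its lowest TRPM2-AS siRNA array (7.03) was just above its highest control array (6.99). PPOX, the enzyme before ferrochelatase, fell 2.79-fold, from 8.87 ± 0.09 (SD, n = 4) to 7.39 ± 0.30 (SD, n = 3; adjusted p = 7.54e-06), and the porphyrin transporter ABCB6 fell 2.18-fold. The decarboxylase UROD (1.31-fold) and the mitochondrial transporter ABCB10 (1.39-fold) rose. The ABCB10 call was lost without TRPM2-AS siRNA array 3, and those of ALAS1, PPOX, ABCB6 and UROD with the untraced column included.

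Among genes of heme transport and binding, 8 of 14 were tested, 3 rose and 2 fell (median log2 fold change 0.15), or 62.5% called, near the 57.3% of all genes tested. PGRMC2, a heme chaperone, rose 1.83-fold and FLVCR2 1.77-fold, whereas the heme-binding protein HEBP1 fell 1.79-fold. HEBP2 also passed as higher, although its groups overlapped (log2 fold change 0.60, limma adjusted p = 0.0169), a call lost in 3 of 18 alternatives. FLVCR1, known as a heme exporter, fell 1.43-fold (log2 fold change -0.52, limma adjusted p = 0.0144). The FLVCR1 call was lost in the authors' processed values, with the untraced column included or without TRPM2-AS siRNA array 3, which also took the count from 5 to 3.

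Of 22 genes of iron uptake, transport and storage outside the 10, 12 were tested, 4 rose and 2 fell (median log2 fold change 0.31). This was 50% called, against 57.3% of all genes tested. The metalloreductase STEAP2 rose by 1.85 on the log2 scale, from 6.81 ± 0.32 (SD, n = 4) to 8.65 ± 0.14 (SD, n = 3; limma adjusted p = 4.43e-06), and the related STEAP1, which lacks reductase activity of its own, 2.22-fold. The zinc and iron importers SLC39A14 (2.15-fold) and SLC39A8 (1.48-fold) rose, and SLC25A28, the mitochondrial iron carrier mitoferrin 2, fell by 0.58 on the log2 scale. CYBRD1, a ferric reductase, fell 1.26-fold (log2 fold change -0.34, limma adjusted p = 0.0305), a call lost in 14 of 18 alternatives (adjusted p from 0.0295 to 0.942). The reductase STEAP3 did not pass (log2 fold change 0.32, adjusted p = 0.122). It passed in 3 of 18 alternatives: the authors' processed values, with and without the replicate block, and without TRPM2-AS siRNA array 1. Its log2 fold change ran from -0.12 to 0.53 over the alternatives. NCOA4, the receptor for ferritin breakdown, had a log2 fold change of -0.04 (adjusted p = 0.781). TF, TFR2, CP, HEPH, FTMT and LCN2 were above background on 0 arrays. The SLC25A28 call was lost without TRPM2-AS siRNA array 1, and it, STEAP1 and SLC39A8 no longer passed with the untraced column included.

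In the iron sensing and hepcidin list, 6 of 14 were tested, 3 rose and 1 fell (median log2 fold change 0.17), or 66.7% called against 57.3% of all genes tested. ACO1, iron regulatory protein 1, rose 1.28-fold, from 12.11 ± 0.09 (SD, n = 4) to 12.46 ± 0.06 (SD, n = 3; limma adjusted p = 0.0163), a call lost with scaling to a common median, with the untraced column included or without TRPM2-AS siRNA array 4. FBXL5, which directs iron regulatory protein 2 to degradation, had a log2 fold change of -0.02 (adjusted p = 0.904). SMAD5 rose 1.77-fold and SMAD4 1.47-fold, both carriers of bone morphogenetic protein signals, and EPAS1, encoding HIF-2 alpha, fell 1.62-fold, a call lost with the untraced column included. Hepcidin (HAMP), HFE and BMP6 were above background on 0 arrays.

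Of 25 iron-sulfur cluster assembly genes, 20 were tested, 5 rose and 4 fell (median log2 fold change -0.00). This was 45.0% called, below the 57.3% of all genes tested. ISCA1 rose 3.16-fold, from 7.48 ± 0.11 (SD, n = 4) to 9.14 ± 0.11 (SD, n = 3; limma adjusted p = 6.25e-07), and its partner IBA57, above background on 3 of 4 control arrays, 3.11-fold. The late-acting assembly factor BOLA3 rose 2.51-fold and NUBPL, which serves respiratory complex I, 2.21-fold. The cytosolic scaffold protein NUBP1 fell 1.76-fold. The core scaffold ISCU had a log2 fold change of -0.16 and did not pass.

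**Figure D4:**
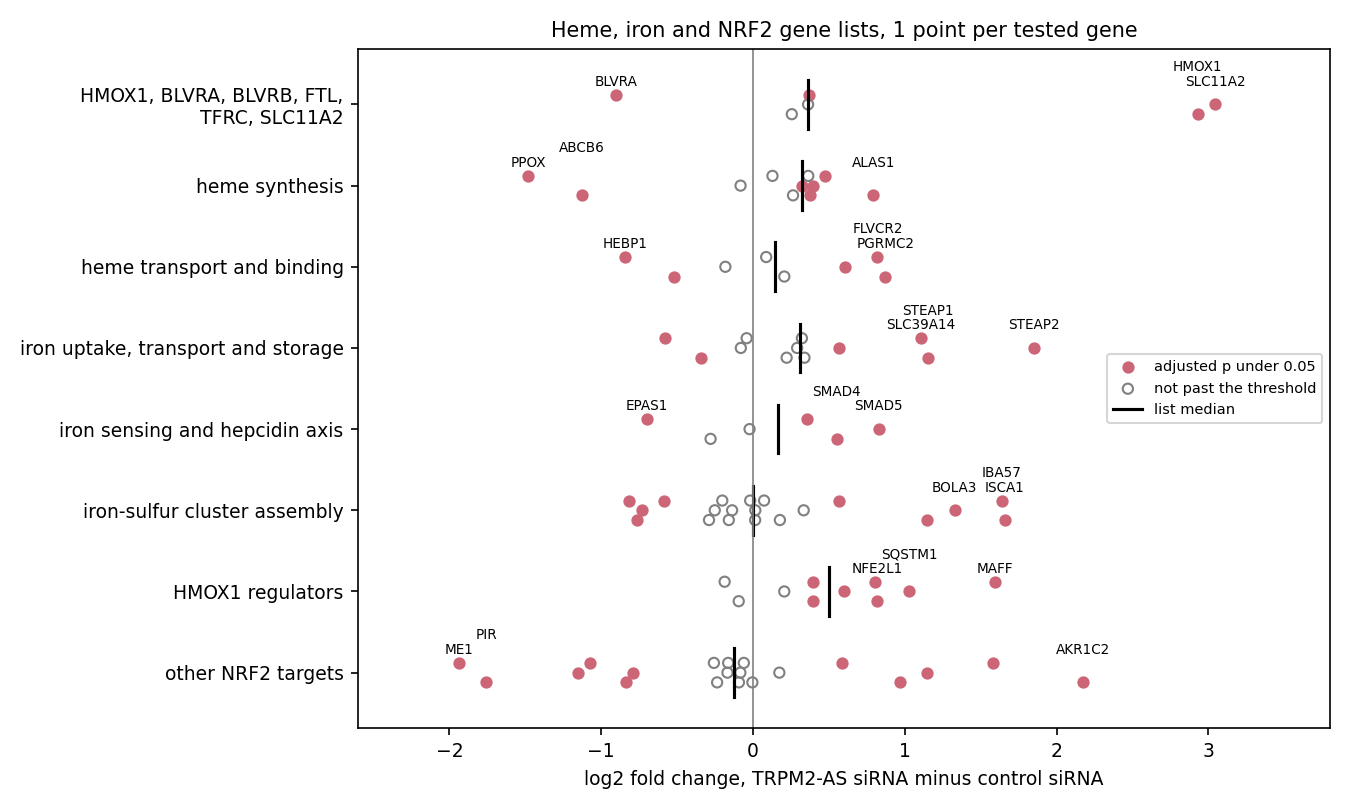
Log2 fold change (TRPM2-AS siRNA minus control siRNA, x axis) of each tested gene in the heme, iron and NRF2 lists (y axis), filled where the limma adjusted p was under 0.05, with the list median as a bar. The medians run from -0.13 for other NRF2 targets to 0.50 for HMOX1 regulators, the AKR1C2 point is a fitted value against control arrays at background, and no listed gene outside the first row rises as far as HMOX1 or SLC11A2.

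Over the 7 wider lists, 87 of 131 genes were tested, and 32 were higher, AKR1C2 included, and 17 lower. This was 56.3% called, against 57.3% of all genes tested. The 5 genes whose profile over the 7 arrays was most like that of HMOX1 were LPXN, GDF15, DAW1, SHC1 and CXCL2, with Pearson correlations of 0.999. All 7 arrays share the split into 2 groups, and 1658 genes correlated with HMOX1 above 0.9.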

How the data were processed

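The authors deposited a table of non-normalized probe intensity with a detection p-value beside each signal, per the file headers, exported from BeadStudio per the submitters' processing notes. Their second deposited table holds processed intensity on a linear scale; all its columns share 1 distribution, and the notes name limma. Their versions are not given in the sources at hand. The first table's 7 traced columns were corrected with limma 3.58.1 (R 4.3.3; normal-exponential model from the detection p-values, offset 16), quantile normalized and log2 transformed. Quantile normalization hides any shift of all genes together. Kept were probes whose detection p was under 0.01 on 3 or more arrays (14400 of 48798), so that either group alone could admit a probe; 1 probe per gene, the brightest, gave 9629 genes. Of the probes, 28094 had 1 gene name, 13 several and 20691 none, and 0 names were updated through RefSeq. Columns were assigned to groups by name; 1 column that followed no sample was left out of the comparison.

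Groups were compared with lmFit and eBayes in limma, two-sided, with Benjamini-Hochberg adjustment over all 9629 genes. The number of arrays limits the precision, with a median SE of 0.14 (log2). The fit was tested on simulated data in which 200 of 9629 genes changed, far fewer than were called here. It called 36% of genes with a log2 change of 0.5, 86% with 1 and 100% with 2. Of its calls, 5.85% were unchanged genes. With fewer changed genes the Benjamini-Hochberg cut is stricter, so these called shares are not the rates for the arrays compared here. Small changes can still be missed. The 10 genes and the 7 wider lists were chosen with earlier results of these data known. Beyond the 10, the text names up to 5 genes per list with the largest change among those past the threshold with groups apart. NFE2L2, KEAP1, BACH1, ACO1, FBXL5 and NCOA4 are named whatever their value. Also named are the 5 genes most like HMOX1 and undetected list members. ISCU, HEBP2, CYBRD1, STEAP3, RBX1, SLC7A11, TXNRD1, GCLC, PGD, SRXN1 and TKT were chosen after their values were seen. At-least folds set the bright group's mean against the dim group's, each dim array taken at its own signal or its dimmest detected probe, whichever was higher. Sequences are from RefSeq tables (GRCh38.p14). Alternatives covered background correction, normalization, filter, probe choice, variance model, the untraced column, the authors' processed values with and without the replicate number as a block, and single arrays left out.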

Additional observations from a re-analysis of the deposited data

Results flagged for a closer look

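In the untraced column, SLC11A2 read 11.54 on the log2 scale with 8 columns normalised together, against at most 8.43 in control arrays, and TFRC read 14.00, against at most 13.99. Both were above every control array in a column the comparison did not use. Among 129 sets of 4 values examined for a single sample far from the rest, 8 stood out, where chance gives about 1 in 20. The count is near that share. Arrays and processed values are the same samples, so the sets are not independent, and BLVRB and NCOA4 each count more than once. In the authors' processed log2 values the lowest HMOX1 sample of the TRPM2-AS siRNA group was 11.92, beside 12.08 to 12.11 in the others (gap over range 0.853). One control array read BLVRB at 8.20, beside 7.46 to 7.58 (0.831), and the processed values gave 8.66 beside 8.15 to 8.24 (0.840). NCOA4 had 1 control array at 12.34 with the others at 12.07 (0.987), and 12.39 beside 12.13 to 12.14 in the processed values (0.988). Among processed TRPM2-AS siRNA samples, ABCB6 had 1 at 7.59 and 3 at up to 8.02 (0.951), BOLA3 1 at 13.80 beside 13.13 to 13.23 (0.850) and SQSTM1 1 at 12.27 beside 12.72 to 12.78 (0.873).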

How the results depend on the processing

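HMOX1 kept its direction and call in 18 of 19 alternatives (log2 fold change 2.03 to 2.99; 2.89 to 2.99 with single arrays left out), and SLC11A2 (2.67 to 3.09) and BLVRA (-0.98 to -0.69) in all 19 run. With all 8 columns under their names, HMOX1 no longer passed (2.03, limma adjusted p = 0.0638), 2529 genes changed in place of 5515, and 2 of the 6 tested genes in place of 4. That fit also called 25 genes of the wider lists in place of 49: 2 of heme synthesis, 3 of heme transport and binding, 2 of iron uptake, transport and storage, 2 of iron sensing, 2 HMOX1 regulators, 7 other NRF2 targets and 7 of iron-sulfur cluster assembly (9 without the column). With single arrays left out, 4840 to 5246 genes, 3 to 5 of the 6 genes, 45 to 49 list genes and 3 to 5 genes of heme transport and binding changed. Replicate numbers are shared between the groups, but deviations of same-numbered processed samples correlated at -0.0656 to 0.385 and not every sample did so best with its own number. With the replicate block on the authors' processed values, 6273 genes changed (5964 without it), and 6 of 6 tested genes passed in both. Dim signal limits HMOX2 and SLC40A1: tested with no filter on dim probes, they gave log2 fold changes of -0.24 and -0.18 (adjusted p = 0.263 and 0.564).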

Other observations

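FTH1 had no probe of its own name, but 1 probe is annotated to FTH1P3, a processed pseudogene of the ferritin heavy chain. It rose 1.56-fold, from 10.79 ± 0.16 (SD, n = 4) to 11.42 ± 0.01 (SD, n = 3) on the log2 scale (limma adjusted p = 0.000858). Whether it binds FTH1 transcripts was not tested, so no value for FTH1 is read from it. Its gene was looked up after the other values were seen.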
